A study of Bos taurus with 38 samples.

Results

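The comparison described here was of rumen papillae from Holstein Friesian bulls at day 125 of Period 1, the end of a feed restriction. It took in 18 of the 38 libraries of the series, 9 from bulls on a restricted allowance (RES) and 9 from bulls fed ad libitum (ADLIB), chosen by the period and diet named in the sample titles. All 18 bulls were male and ate the same ration of 70% concentrate and 30% grass silage, so the amount offered was what differed: RES bulls were fed for a gain of 0.6 kg per day and ADLIB bulls were expected to gain 1.5 to 2 kg per day. The other 20 libraries came from different bulls, 10 that had been restricted in Period 1 and 10 fed ad libitum throughout, on day 55 of Period 2, when every bull had free access to feed. Each library came from 1 bull, so the p-values below measure the spread between animals. The extraction label speaks of muscle while the tissue label and the study's methods give rumen epithelium, and 0 of the 12634 gene identifiers listed for Period 1 could be paired with a symbol, so the tissue was not checked against marker genes and genes are given by identifier only.

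Rumen papillae are the finger-like folds of the forestomach wall. Their stratified epithelium takes up the short-chain fatty acids made by fermentation, carries ions and ammonia, and forms the barrier between the microbes of the rumen and the blood. The tissue is known to respond to how much fermentable feed arrives, and its papillae can grow or shrink with intake. The question put to the Period 1 libraries was how the transcripts of that epithelium differed after a long period of low intake.

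Between 5948453 and 11957654 reads were recovered per library over the listed genes, and 12602 of the 12634 genes had a read in every one of the 18. The median depth was 9503897 reads in RES and 10524345 in ADLIB (exact permutation test of the mean, two-sided, p = 0.128). Depth followed the first digit of the library name: the 5 libraries with a 1, of which 4 were RES, held 5948453 to 7263538 reads, and every other library held at least 9193155. A group of 3 libraries stood apart by their scaling factor (the TMM correction for RNA composition), ADLIB replicate 4 at 1.13, RES replicate 4 at 1.12 and RES replicate 1 at 1.11, where the other 15 lay between 0.914 and 1.05. Many of the results below are also given without them.

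The difference between diets was small in most genes. Over the 12626 genes tested, the median size of the RES minus ADLIB difference was 0.094 on the log2(CPM + 1) scale (CPM being the count of a gene scaled by the size of its library), against a median standard error of 0.114, and 80.9% of genes differed by less than 0.2. The lower and upper quartiles were -0.093 and 0.095, so neither direction dominated: 6276 genes had the higher mean in RES and 6350 in ADLIB. Diet accounted for 8.53% of the total variance of log2 values among the 18 animals, and for a median of 4.01% in single genes. It accounted for more than 50% in 64 of the 12626 genes tested. Any split of the 18 animals into 9 and 9 takes up some variance, and that share was not estimated.

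A single gene passed the Benjamini-Hochberg threshold of 0.05 in limma, 0.00792% of those tested, and it was higher in RES. At an unadjusted p under 0.05 there were 1167 genes, 9.24% of those tested, of which 585 (4.63%) were higher in RES and 582 (4.61%) lower. The median difference of those higher in RES was 0.33 and of those lower -0.28. If no gene differed, a share near 0.05 of the tests would still fall under that threshold. The share of genes without a difference was estimated from the limma p-values at 0.819 (convest method). Relaxing the adjusted threshold to 0.1 took in 5 genes, 3 of them higher in RES, and a threshold of 0.2 took in 73 genes, 46 higher and 27 lower, with differences between 0.24 and 2.20 in size. At 0.3 the list held 256 genes and the directions were close to even, with 125 higher and 131 lower. Without the 3 libraries of high scaling factor, 1 gene again passed at 0.05, which was another gene, and 1391 passed unadjusted. With library digit as a covariate 1029 genes passed unadjusted, 724 of them among the 1167, and within the single digits 964 to 1099 of the 1167 had the pooled direction, in animals that the pooled test had also used.

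The number of genes called depended on the test. On the whole reads recovered from the CPM values, DESeq2 called 62 genes (0.501% of those it adjusted), 39 higher in RES and 23 lower, and the edgeR exact test with tagwise dispersions, the kind of dispersion the study used, called 40 (0.317%), 26 higher and 14 lower. The 37 genes called by both tests made up 59.7% of the first list and 92.5% of the second. The quasi-likelihood test of edgeR and limma-voom called 1 gene each. All 65 genes that DESeq2 or the exact test called had an unadjusted p under 0.05 in limma, with adjusted p-values from 0.012 to 0.356 there, and 42 of them were higher in RES.

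**Figure D1:**
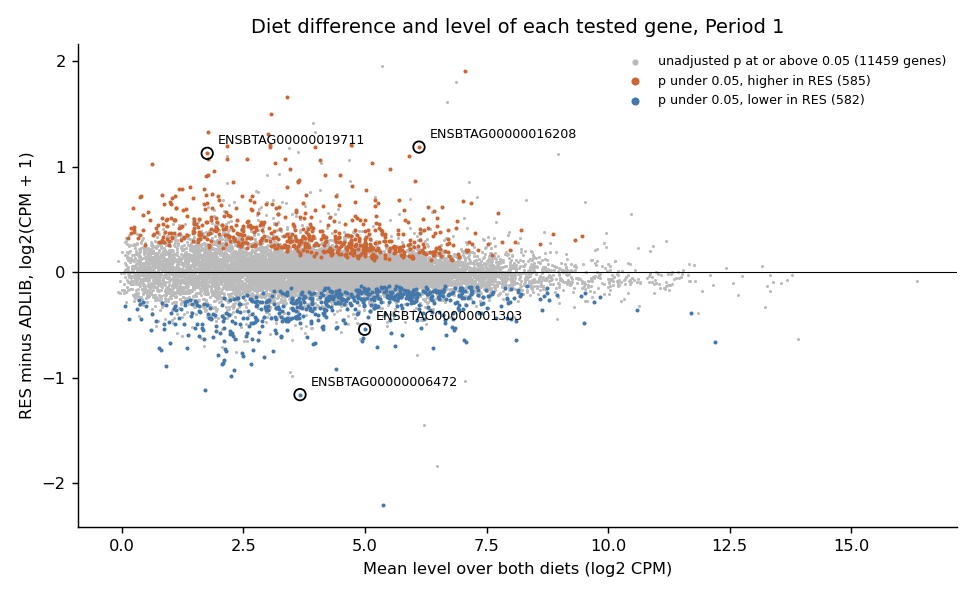
Each point is a tested gene, with its mean level over both diets (log2 CPM) on the horizontal axis and the RES minus ADLIB difference in log2(CPM + 1) on the vertical axis. The 585 genes higher and 582 lower in RES at an unadjusted p under 0.05 are coloured, and the 4 circled genes are those given by animal in the text.

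ENSBTAG00000019711 was the gene that passed in limma. Its level in ADLIB ran from 0.666 to 2.41 CPM with a median of 2.10, and in RES from 3.1 to 6.52 CPM with a median of 4.80. All 9 RES animals lay above all 9 ADLIB animals, so the diets did not overlap. The means were 1.78 ± 0.707 CPM (SD, n = 9) in ADLIB and 4.97 ± 1.14 CPM (SD, n = 9) in RES, a 2.79-fold ratio, and the difference was 1.13 ± 0.16 (SE) on the log2(CPM + 1) scale (limma, adjusted p = 0.012). The gene rested on few reads, 6 to 24 per library in ADLIB and 22 to 86 in RES. The lowest RES animal (replicate 6, 22 reads) had an exact Poisson 95% interval of 1.94 to 4.69 CPM and the highest ADLIB animal (replicate 2, 18 reads) one of 1.43 to 3.80 CPM, so the intervals of the closest animals overlapped, and they cover counting error only. Without the 3 libraries of high scaling factor the difference was 1.09 and the adjusted p was 0.0578. Within the 4 library digits, with 1 to 4 animals per diet in each, the difference ran from 0.56 to 1.42. Its sign there was fixed by the lack of overlap between the diets, so it says nothing about the library digit.

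ENSBTAG00000016208 had the next smallest p among genes higher in RES. It lay between 17.6 and 70.0 CPM in ADLIB, with a median of 45.1, and between 56.7 and 122 CPM in RES, with a median of 97.9. The diets overlapped by a few animals, since 7 of the 9 RES animals were above every ADLIB animal and 8 of the 9 ADLIB animals were below every RES animal. The difference was 1.19 ± 0.21 (SE), a 2.20-fold ratio of means, at a limma adjusted p of 0.0685. Here the reads were ample, 192 to 727 in ADLIB and 380 to 1359 in RES, so counting error was small beside the spread between animals. The gene passed in DESeq2 (adjusted p = 0.000262), in the exact test (adjusted p = 3.7e-05) and in limma with library digit in the model, where its difference was 1.43 (adjusted p = 0.014). It missed in the quasi-likelihood test (adjusted p = 0.0852) and in limma-voom (adjusted p = 0.0746). In limma it also missed in the fit of all 4 groups (adjusted p = 0.0935) and with depth as a covariate (adjusted p = 0.141). Without the 3 libraries of high scaling factor the limma adjusted p was 0.0615.

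ENSBTAG00000006472 was the first of the genes lower in RES. ADLIB animals lay between 9.44 and 28.3 CPM with a median of 18.5, and RES animals between 4.46 and 10.1 CPM with a median of 7.28. Only ADLIB replicate 4, at the bottom of its diet, fell among the RES animals, and the other 8 were above all 9 of them. The mean was 2.44 times as high in ADLIB as in RES, and the difference was -1.16 ± 0.20 (SE; limma, adjusted p = 0.0685). DESeq2 gave an adjusted p of 4.33e-05 and the exact test 2.92e-05, and limma with library digit in the model 0.20. The adjusted p was 0.0654 in the quasi-likelihood test and 0.0947 in limma-voom. Without the 3 libraries of high scaling factor it was 0.0578 in limma.

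ENSBTAG00000001303, the second of the genes lower in RES, differed by less but varied less. It lay between 31.6 and 45.4 CPM in ADLIB, with a median of 36.7, and between 21.5 and 37.3 CPM in RES, with a median of 24.9. A total of 8 RES animals were below every ADLIB animal, and the exception was RES replicate 2, the highest of its diet. The difference was -0.54 ± 0.10 (SE; limma, adjusted p = 0.0685). The limma adjusted p was 0.20 with library digit in the model and 0.405 in the fit of all 4 groups. Without the 3 libraries of high scaling factor it was 0.0959. The SD of the gene among animals on the log2(CPM + 1) scale was 0.182 in ADLIB and 0.240 in RES, where ENSBTAG00000016208 had 0.609 and 0.363. The limma adjusted p of the last 3 genes depended on the animals included. When single animals were left out, it ran from 0.0159 to 0.139 for ENSBTAG00000016208, from 0.0156 to 0.139 for ENSBTAG00000006472 and from 0.00827 to 0.139 for ENSBTAG00000001303. It was highest without ADLIB replicate 2, and all 3 passed without ADLIB replicate 4. ENSBTAG00000016208 and ENSBTAG00000006472 also passed without RES replicate 8, ENSBTAG00000006472 without ADLIB replicate 3 and ENSBTAG00000001303 without RES replicate 2.

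**Figure D2:**
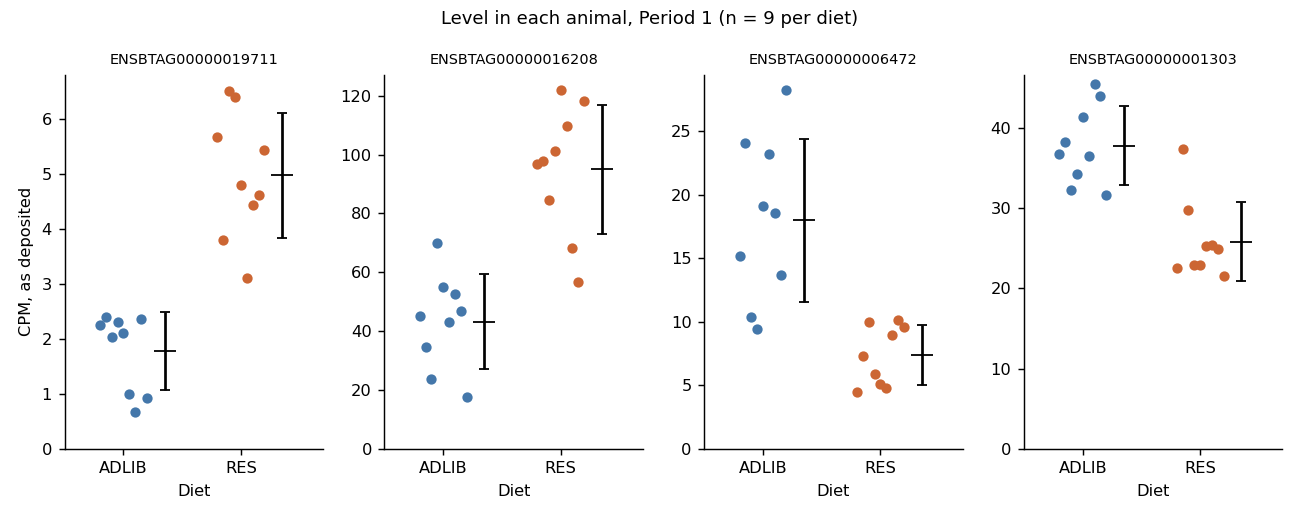
CPM of the 4 genes in each of the 9 animals per diet (points), with the diet mean and SD beside them as a bar. The diets are fully apart for ENSBTAG00000019711, with the lowest RES animal at 3.1 CPM and the highest ADLIB animal at 2.41 CPM, and overlap by few animals in the other 3.

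Large differences were mostly higher in RES. A change of more than 1.5-fold on the log2(CPM + 1) scale was seen in 200 genes, 1.58% of those tested, 132 higher in RES and 68 lower, and 140 of the 200 had an unadjusted p under 0.05. Past 2-fold there were 39 genes, 33 higher and 6 lower. Of these, 15 missed an unadjusted p of 0.05, and their median SD between animals of a diet was 1.95 against 0.243 over all genes tested. In the diet with the higher mean, 1 animal held a median of 31.4% of the summed CPM of those 15 genes and 22.9% in the 24 genes that passed. The animal that was highest most often was RES replicate 6, in 13 of the 39 genes. Without ADLIB replicate 4 alone, 51 genes passed 2-fold, 44 higher and 7 lower. Without the 3 libraries of high scaling factor, which include it, 41 genes passed 2-fold, 29 higher and 12 lower. The excess of higher genes among the largest differences was smaller without the 3 libraries, but not without ADLIB replicate 4 alone. With a pseudocount of 0.1, which compresses low genes less, 84 genes passed 2-fold, 61 higher and 23 lower.

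The size of the difference fell with abundance, and so did its error. The tested genes were put in 10 bins of equal number by mean log2 level, with a median of 17.4 reads per library in the lowest bin and 1870 in the highest. The median size of the difference was 0.129 in the lowest bin, 0.139 in the second and 0.074 in bins 8 and 9, and the median standard error fell from 0.163 to 0.088 over the same bins. The share of genes with an unadjusted p under 0.05 changed little, between 8.23% and 11.3% per bin, with no bin far from the 9.24% of all genes. What changed was the difference that could be told from the spread: the genes past that threshold had a median size of 0.42 in the lowest bin and 0.23 in bins 8 and 9. With a pseudocount of 0.1 the median size in the lowest bin was 0.20 and in the highest 0.078.

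Read counting made up much of the error in low genes and little in abundant ones. Its median share of the variance between animals of a diet was 43.8% in the lowest bin, 24.9% in bin 5 and 2.47% in bin 10. The SD between animals stopped falling at high abundance, at 0.195 in bin 7, 0.188 in bin 9 and 0.204 in bin 10.

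Direction also changed with abundance. In the lowest 2 bins, 158 genes were higher in RES and 95 lower at an unadjusted p under 0.05. This became 244 higher and 86 lower without ADLIB replicate 4, and 166 and 107 without the 3 libraries of high scaling factor, and 55.6% to 73.9% of the calls were higher in RES when single animals were left out. In the highest bin, where genes had a median of 200 CPM, 26 were higher and 80 lower, so that 24.5% of its calls were higher in RES against 49.6% in bins 3 to 9. The median difference moved from 0.02 and 0.03 in bins 1 and 2 to -0.03 in bin 10. The split of the highest bin was 22 higher to 120 lower without ADLIB replicate 4, 48 higher to 86 lower without the 3 libraries of high scaling factor, 18 to 63 with depth as a covariate, 25 to 60 with library digit as a covariate and 22 to 83 in the quasi-likelihood test. Leaving out single animals, 15.5% to 34.7% of its calls were higher in RES. The 10 most-read genes took 18.5% of reads on average in RES and 19.6% in ADLIB (exact permutation test, two-sided, p = 0.194). Whether composition had a part in the split was not tested.

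**Figure D3:**
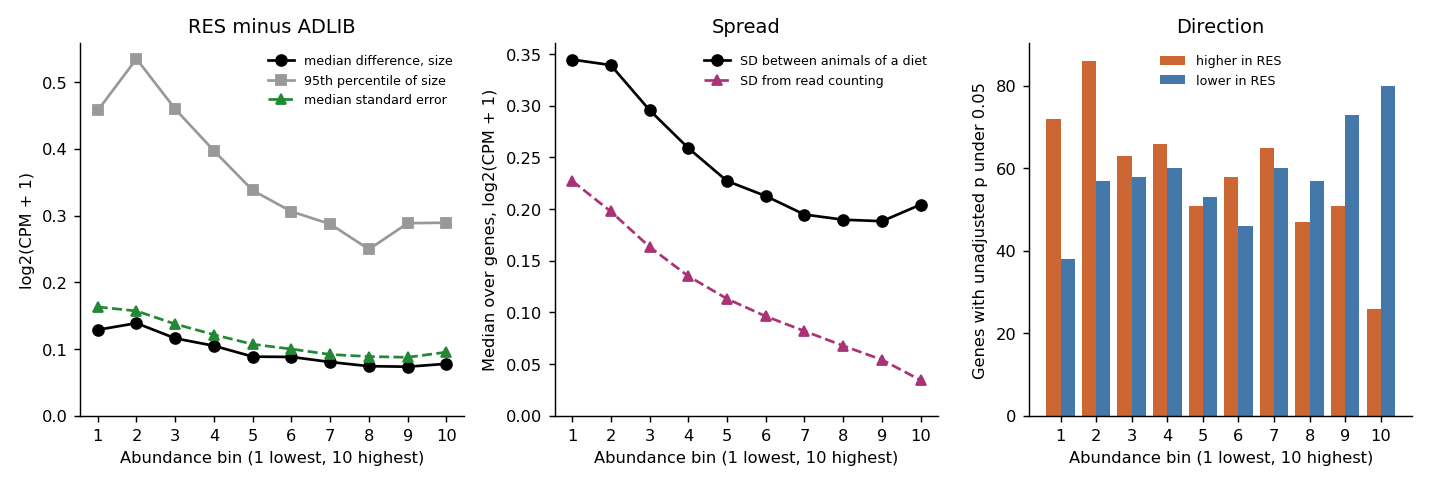
Left, median and 95th percentile of the size of the RES minus ADLIB difference and its median standard error, all in log2(CPM + 1), in 10 bins of rising abundance; middle, the median SD between animals of a diet and the SD that read counting alone gives; right, genes with an unadjusted p under 0.05 by direction. The left curves fall from 0.129 and 0.163 in bin 1, and in bin 10 the right bars stand at 26 higher and 80 lower.

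Animals of the diets overlapped in nearly every gene. Over the 81 comparisons of a RES with an ADLIB animal, the RES animal was the higher one in a median of 41, and 90% of genes lay between 19 and 62. Of the 12634 listed genes 1, ENSBTAG00000019711, had all 9 RES animals apart from all 9 ADLIB animals, which is 0.00792%. At least 77 of the 81 comparisons favoured RES in 22 of the 12626 genes tested, and at most 4 did in 11 of them. Among the 1167 genes with an unadjusted p under 0.05, a median of 3 RES animals lay outside the whole ADLIB range on the side of the difference. At least 5 did in 383 of these genes (32.8%), at least 7 in 79, and none in 59. The 1167 genes were chosen by p in these same animals, which favours animals lying apart. The same counts were not made over all genes tested. The count of fully separated genes was 2 to 10 when 1 animal was left out, the highest without ADLIB replicate 4, and 23 without the 3 libraries of high scaling factor, where fewer animals had to be apart.

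The spread between animals was close to equal in the diets. The median SD on the log2(CPM + 1) scale was 0.233 in RES and 0.241 in ADLIB, and it was the larger in RES for 45.5% of genes. The common biological coefficient of variation, estimated by edgeR within each diet, was 0.210 in RES and 0.233 in ADLIB. No gene differed in spread at an adjusted p under 0.05 (limma on absolute deviations from the diet mean, 0 genes, 0%, lowest adjusted p 0.109), and 746 genes (5.91%) did at an unadjusted p under 0.05, 464 with the larger spread in ADLIB and 282 in RES. With deviations from the diet median the lowest adjusted p was 0.9996 (limma, 0 genes). Without ADLIB replicate 4 the SD was larger in RES for 51.1% of genes, and without any other single animal of either diet for 42.2% to 48.8%. Without the 3 libraries of high scaling factor, which include ADLIB replicate 4, it was larger in RES for 47.1%. Of the 12626 genes tested, an SD more than 2 times that of the other diet was found in 515 for ADLIB and 311 for RES. These counts, and the 464 and 282 above, were not recomputed without ADLIB replicate 4.

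By animal, the root mean square distance over genes from the mean of the other 8 of its diet was 0.344 ± 0.0444 (SD, n = 9) in RES and 0.354 ± 0.0727 (SD, n = 9) in ADLIB (exact permutation test, two-sided, p = 0.747). Distances within a diet share animals and are not independent, so that p is approximate. RES animals ran from 0.283 to 0.391 with a median of 0.354, and ADLIB animals from 0.291 to 0.517 with a median of 0.324. ADLIB replicate 4 was the farthest at 0.517, and the next, ADLIB replicate 3, was at 0.418. Without ADLIB replicate 4 the mean distance was larger in RES, by 0.0113. Without the 3 libraries of high scaling factor the RES minus ADLIB difference was -0.000485 (exact permutation test, two-sided, p = 0.982).

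Along the main axis of variation between the 18 animals, the diets were not told apart. Component 1 of the log2 profiles held 25.1% of the variance, of which diet explained 2.40% (exact permutation test, adjusted p over 4 components 0.542). That share rested on the animals included: when the components were recomputed, diet explained 20.4% of component 1 without ADLIB replicate 4 (exact permutation test, adjusted p = 0.180) and 25.0% without the 3 libraries of high scaling factor (adjusted p = 0.115). The scores along it set 4 animals of both diets apart from the rest: ADLIB replicate 4 at 44.0, RES replicate 4 at 32.9, RES replicate 1 at 30.1 and RES replicate 6 at 20.2, where the other 14 lay between -22.6 and 2.97. The first 3 of these are the libraries of high scaling factor, and in them the 10 most-read genes took the smallest shares of reads, 15.9% to 16.7%. Their part in the axis was not tested. Component 2 held 13.9% of the variance and diet explained 16.4% of it (adjusted p = 0.190), component 3 held 8.79% with 27.8% (adjusted p = 0.106; p = 0.0265 before adjustment) and component 4 held 8.23% with 10.5% (adjusted p = 0.252). Recomputed components need not be the same axes. Without the 3 libraries, diet explained 2.26% of component 2, 5.93% of component 3 and 52.0% of component 4 (exact permutation test, adjusted p = 0.00870 for the last). Over genes above a mean of 5 CPM it explained 2.62%, 12.2%, 3.62% and 45.0% of components 1 to 4 (adjusted p = 0.0114 for the last).

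**Figure D4:**
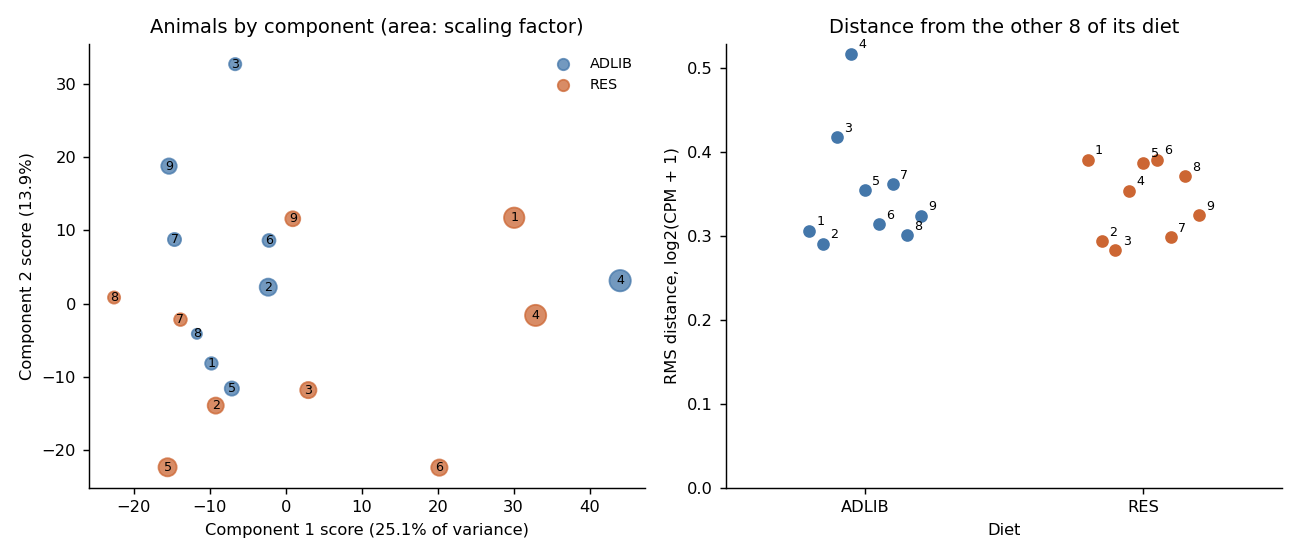
Left, the 18 animals by their scores on components 1 and 2, numbered by replicate, with the point area growing with the scaling factor; right, the distance of each animal from the mean of the other 8 of its diet, in log2(CPM + 1). ADLIB 4, RES 4 and RES 1, with the largest points, lie above 30 on component 1, and ADLIB 4 has the largest distance, 0.517.

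The diet difference of Period 1 was set beside that of Period 2, which came from other bulls and shared no library with it. A test of the change in the diet difference between periods (limma, diet by period term, 12543 genes listed in both) called 3 genes (0.0239%), 2 of them shifted upwards and 1 downwards in Period 1 relative to Period 2, and 600 (4.78%) passed an unadjusted p of 0.05. ENSBTAG00000019711 was among the 3: its Period 1 difference exceeded that of Period 2 by 1.08 (adjusted p = 0.0422). In Period 2 its means were 1.78 ± 0.690 CPM in ADLIB and 1.82 ± 0.386 CPM in RES (SD, n = 10 each), so the level in RES of Period 1 was the one that stood out. With library digit in the model no gene passed in limma (0 genes, lowest adjusted p 0.135, 668 genes at an unadjusted p under 0.05), and the quasi-likelihood test without the digit called 2. The other 3 genes given above did not pass this test, with adjusted p-values of 0.904 for ENSBTAG00000016208, 0.576 for ENSBTAG00000006472 and 0.998 for ENSBTAG00000001303.

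Genes with an unadjusted p under 0.05 in Period 1 kept the direction somewhat more often than all genes did, and did not keep the size. Of the 1167 genes with an unadjusted p under 0.05, 1149 were tested in Period 2, and 769 of these (66.9%) had the same direction there, against 57.4% of all 12454 genes tested in both. Their median size was 0.305 in Period 1, the period that chose them, and 0.0995 in Period 2. An unadjusted p under 0.05 in Period 2 was reached by 57 of them (4.96%), which is close to the 4.81% of all genes tested in both. Of the 70 genes under a limma adjusted p of 0.2 in Period 1 that Period 2 also tested, 39 (55.7%) kept the direction. That is no more than the 57.4% of all genes.

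**Figure D5:**
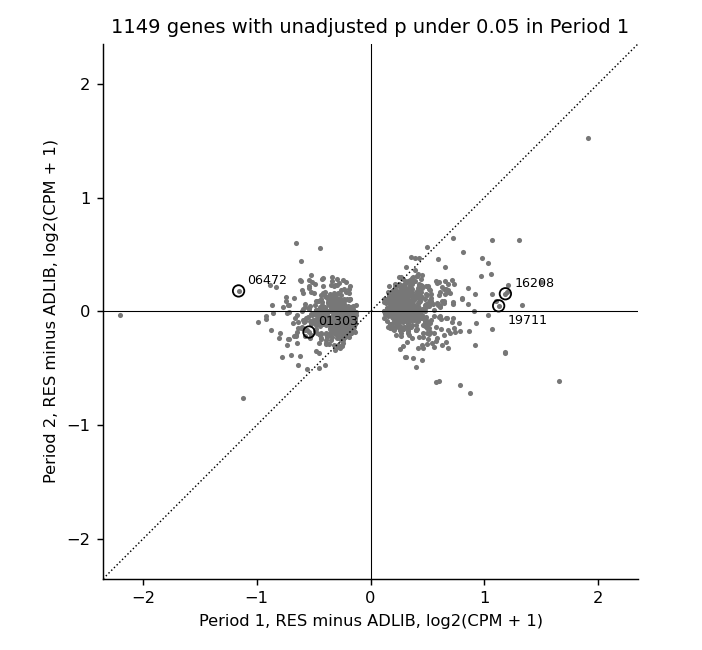
RES minus ADLIB difference in log2(CPM + 1) of the 1149 genes with an unadjusted p under 0.05 in Period 1, at the end of Period 1 (horizontal) and of Period 2 (vertical), with the 4 named genes circled by the last digits of their identifier and the dotted line marking equal differences. The Period 2 differences crowd around 0, with a median size of 0.0995 against 0.305 in Period 1.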

How the data were processed

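The authors extracted RNA, made single-end mRNA libraries, trimmed reads with FASTX, aligned them with TopHat and Bowtie to the bovine genome UMD3.1, counted them per gene with HTSeq, removed low genes and scaled the counts with edgeR. Per the labels, CASAVA 1.4 and SAMtools were also used. The deposited signal is CPM of the TMM-scaled library, scaled within each period. Every value was a whole multiple of the value of 1 read (100% within 0.01 of a read), so whole reads were recovered, and TMM factors recomputed from the 18 libraries gave the deposited scale.

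The members and lists were chosen with earlier results of these data known. The test was limma 3.58.1 with a variance trend on log2(CPM + 1), Benjamini-Hochberg adjusted, over genes passing the filterByExpr function of edgeR 4.0.16, which left out 8 of 12634. DESeq2 1.42.0 and 3 other count models were run on the recovered reads, a unit not foreseen when the tests were chosen. Spread was tested by limma on absolute deviations from the diet mean. Components and animal distances were tested by two-sided exact permutation in scipy 1.17.1. Scripts were tested on simulated data. The named genes were the 2 highest-ranked by p in each direction. Alternatives changed the normalization, pseudocount, filter, model and animals. Leaving out 3 libraries by scaling factor, and single animals for the share of genes by spread, was chosen after seeing the data. So was leaving out ADLIB replicate 4 for the components and for the test between periods. Gene lists, cell type markers and sequences were not used because 0 identifiers could be paired with a symbol. In the reference table at hand (assembly ARS-UCD2.0), 0 of 37063 genes carried an Ensembl identifier. Depth per library, 5948453 to 11957654 reads, made 1 read worth 0.0744 to 0.160 CPM, and reads carried no molecular identifiers, so intervals cover counting error only.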

Additional observations from a re-analysis of the deposited data

Results flagged for a closer look

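ADLIB replicate 4 scored 44.0 on component 1 of the Period 1 profiles, and the next ADLIB animal scored -2.21. The gap took up more of the range of the 9 ADLIB animals than Dixon's 95% limit allows. RES replicate 6 scored -19.4 on component 4, where the next lowest RES animal scored -0.838, and was flagged for the same reason. These were 2 of 26 groups of 9 looked at, over 13 measures per diet, and chance flags about 1 group in 20.

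The diet difference of ENSBTAG00000019711 was larger in Period 1 than in Period 2 by 1.08 on the log2(CPM + 1) scale (limma, diet by period term, adjusted p = 0.0422), and 3 genes in all had a difference between the periods.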

How the results depend on the processing

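The number of genes called between RES and ADLIB was 62 in DESeq2 and 40 in the edgeR exact test, against 1 in limma. It was 0 over genes above a mean of 5 CPM (lowest adjusted p 0.0702, 936 genes at an unadjusted p under 0.05), a filter that left the called gene out, and 2 with all 4 groups in a single fit or with library digit as a covariate. It ran from 1 to 13 when single animals were left out, the highest without ADLIB replicate 4, then 5 without RES replicate 8 and 3 without ADLIB replicate 3. The 18 such fits called 17 genes between them, and 1 gene was called in all of them. The cause of the difference between tests was not tested. The count at an unadjusted p under 0.05 stayed within 839 and 1391 under all 32 alternatives, the lowest with depth as a covariate.

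The labels give animals of both diets the same replicate numbers, but nothing states that a number pairs them. Deviations from the diet mean of same-numbered animals had a mean correlation of 0.122 (5 of 9 above 0.1, 3 of 9 best with their own number) against -0.014 for other pairs. With the replicate block, 2 genes were called between the diets and 2 in the test between periods.

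Fully separated genes numbered 0 above a mean of 5 CPM, 2 to 10 when single animals were left out, and 23 without the 3 libraries of high scaling factor. Genes differing in spread numbered 0 to 2 when single animals were left out. The difference in animal distance, -0.0102, ran from -0.0220 to 0.0113 when single animals were left out. It turned positive without ADLIB replicate 4 (0.0113) and without RES replicate 3 (0.00142), with no test passing. Components were recomputed under each alternative and need not be the same axes. Diet explained 45.0% of component 4 above a mean of 5 CPM, where its share of component 3 was 3.62%, and 52.0% without the 3 libraries, where its share of component 3 was 5.93% and of component 1 25.0%. The test between periods called 0 genes with library digit in the model. The log2 differences of the 4 named genes kept their direction under every alternative run. They had been chosen by p in these same animals, so a kept direction says little. The difference ran from 1.04 to 1.60 for ENSBTAG00000019711, which missed the threshold without the 3 libraries (limma, adjusted p = 0.0578).

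Depth limits the lowest bins most, and RES libraries were the shallower ones in 4 of the 5 with library digit 1.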
